A study of Arabidopsis thaliana with 51 samples.

Results

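The stamen-specific probes are 262 probes of a two-colour array of Arabidopsis thaliana, the thale cress, whose ratio in stamens stood well above that in every other organ measured. They were chosen from the measured values. Each array against cultured cells was centred on its median, values were averaged within an organ group, and a probe was kept where its stamen mean lay at least 2 above the highest other group mean on the log2 scale, a factor of 4. At least 2 stamen values and a mean in at least 14 of the 16 other groups were required, which 25690 of the 27600 probes met, and 1.02% of those were kept. The pollen genes ACT12, TUA1 and VGD1 were left out by the rule. A single gene could be named for 9 of the 262 probes, 5 matched several genes, and the other 248 (94.7%) are given as counts and ranges.

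Stamens are the pollen-producing organs of the flower, made of a filament and an anther. Inside the anther the tapetum, a nourishing cell layer, feeds developing pollen, and ripe pollen stores transcripts for actin, tubulin and cell-wall enzymes used in growing the pollen tube. Pollen is shed onto the pistil and can settle on neighbouring petals and sepals. The stamen also depends on jasmonate, a hormone needed for filament growth, anther opening and pollen maturation in this species.

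The study set RNA of an organ against RNA of cultured cells, a common reference, on 45 arrays. Stamens, petals, rosette leaves, cauline leaves, stems, germinating seeds, cotyledons in the dark, and siliques labelled 3DPP and 8DPP had 3 arrays each. Sepals, pistils labelled 1DBP, cotyledons in the light, hypocotyls in light and in dark, and roots in light and in dark had 2 each, and there were 4 of pistils labelled 1DPP. Light was set against dark on the same array on 6 others, 2 each for cotyledon, root and hypocotyl. The labels name light or dark but give no details of the light treatment, and no genotype, ecotype, plant age or source of the cultured cells. They do not spell out DBP and DPP, which are read here, from knowledge of the study, as days before and days past pollination.

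Values are log2 ratios centred by array, so a value of 0 is that array's median ratio. That they run organ over cultured cells is a likely reading, not a stated one, and every level below depends on it. Its basis is the photosynthesis genes in green organs of either labelling: PSAN, a photosystem I subunit gene, averaged 8.41 in rosette leaves, labelled in channel 1, and 7.84 in light cotyledons, labelled in channel 2. The stamen arrays held 25896, 26129 and 25728 values, near the highest number on any array (26657), and replicate 3 of the 8DPP siliques held the fewest (7410). Correlations between the stamen arrays across probes ran from 0.850 to 0.939. Whether the replicates of an organ were separate plants is not in the labels. The p-values therefore measure the spread between arrays, which may be technical, and the small number of arrays limits precision. A whole organ was measured, so fewer cells of a type and less RNA per cell cannot be told apart. Organ RNA was in channel 2 for every floral group, pistil and silique, so a dye effect is shared by the groups compared below. Leaves and stem had it in channel 1, where dye and organ cannot be told apart. The 2 light root arrays had it in opposite channels under the same number and may be a dye swap of 1 sample. They correlated at 0.75, and no comparison tested below uses that group's mean.

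Stamen levels are described without a test, because they chose the members. The stamen mean had a median of 6.20 over the 262 probes, with quartiles of 4.90 and 7.67 and a range from 0.80 to 10.65. By array, the medians of the members were 6.49, 6.46 and 5.89, so replicate 3 lay slightly below the others. It was the lowest stamen array for 126 members and the highest for 80. Stamen arrays differed by a median of 1.21 within a member, by less than 1 in 112 members and by more than 2 in 67. All stamen values lay above every other array against cultured cells in 213 members (81.3%), and the other 49 overlapped with at least 1 array of another organ.

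The gap between the stamen mean and the highest other mean had a median of 2.84, quartiles of 2.38 and 3.55, and a maximum of 5.98. It reached 3 in 113 members, 4 in 34 and 5 in 3. Within 0.25 of the threshold there were 47 members above it and 49 eligible probes below it, so the edge of the set is not a natural break. The named members nearest the threshold were AT2G19400 and AT3G49540, with gaps of 2.08 and 2.11. The nearest named genes outside it were RALFL15, at 1.90, and ACT12, at 1.87. All 3 stamen values were present for 228 members and 2 for 34, and 157 members had a mean in all 16 other groups. A member had a value on a median of 40 of the 45 arrays.

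Away from the stamen, the members stood highest in the other floral organs. Their median level was 2.49 in petals, 2.21 in sepals and 2.06 in 1DPP pistils, where the median of all probes is near 0. The unpollinated 1DBP pistils stood at 0.42, and siliques at 1.26 at 3DPP and 0.64 at 8DPP. Germinating seeds stood at 0.88, and dark hypocotyls, roots and cotyledons at 0.63, 0.48 and 0.45. Light cotyledons, hypocotyls and roots stood at 0.32, 0.09 and -0.06, and cauline leaves, stems and rosette leaves lowest, at -0.44, -0.45 and -0.51. Neighbouring groups in this order differed in median by less than the width between the quartiles of the members in either.

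A level at least 2-fold above the array median was measured in petals for 81.9% of members, in sepals for 76.7% and in 1DPP pistils for 74.0%. The same shares of all probes were 29.8%, 32.6% and 26.0%. In 1DBP pistils the members' share was 29.0%, close to the 27.4% of all probes. The highest group after the stamen was the petal for 78 members, the 1DPP pistil for 50 and the sepal for 45, together 173 of 262 (66.0%). Germinating seeds were next, for 20 members. The median excess of the stamen was 3.68 over petals, 3.94 over 1DPP pistils, 4.07 over sepals, 5.81 over 1DBP pistils and 6.73 over rosette leaves.

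The same rule applied to every other group found 241 probes for germinating seeds, 102 for sepals, 99 for light hypocotyls and 78 for light roots. It found 35 for 1DBP pistils, 6 for 1DPP pistils, 20 for petals, 15 for rosette leaves and 2 for cauline leaves. The germinating seed list was 1.04% of its 23076 eligible probes, so as a share it stood level with the 1.02% of the stamen. These counts depend on the eligible probes and on the scatter and number of arrays in each group and have no test.

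Cell-type markers were looked up on the stamen arrays. None of them is a named member, so their levels describe the stamen samples and do not test what the members are. Of 64 pollen genes drawn up, 5 were measured on named probes. VGD1, a pollen pectin methylesterase, had stamen values of 7.60, 7.35 and 9.16, ACT12, a pollen actin, 5.55, 5.48 and 8.24, and TUA1, a pollen alpha-tubulin, 3.07, 2.89 and 2.83. All 3 genes were therefore above the array median on every stamen array. TUB9, a beta-tubulin, averaged 3.23 in stamens and exceeded its next highest group by only 0.38, and ACT11, an actin also used in ovules, averaged 5.11 and lay below another group. Of 36 tapetum and anther genes, 2 were measured: ATA20 averaged 0.04 in stamens and SPL, a regulator of sporogenous cells, 0.46, both near the array median. None of 7 floral identity genes such as AP3 and AG was measured here. The ovule gene INO averaged -0.70 in stamens. The measured genes of the pollen list were thus high in stamens, and ATA20 and SPL, the only 2 measured of the tapetum and anther list, were not. Photosynthesis genes were in part high there too. ATPC1 averaged 6.997 in stamens, LHB1B2 5.82 and PSAN 3.01, each below another organ group, while the probes of LHCB4.1 averaged -0.53 and 0.38. A level above the array median in stamens is therefore not particular to pollen genes.

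Among the named members, APPB1 had the largest gap, 3.70, and the highest stamen mean. Its stamen values were 11.42, 8.27 and 8.23, a mean of 9.31 ± 1.83 (SD, n = 3). Replicate 1 lay well above the others, and all 3 lay above every other array. Petals followed at 5.76 and 5.45, then 1DPP pistils at 5.31, 3.92 and 5.71, 3DPP siliques at 2.28, 4.58 and 3.16, and sepals at 3.02 and 3.40. The petal and 1DPP pistil ranges overlapped. Germinating seeds averaged -2.0, the lowest of its groups, and leaves and stem lay between -0.72 and 0.

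AT3G07820 was the most even named member across stamen arrays, at 8.53, 8.38 and 8.53, a mean of 8.48 ± 0.08 (SD, n = 3). Petals followed at 5.46, 6.31 and 7.31, and sepals had 4.79 and 4.63. A single value of 6.28 from 1 of the 2 dark hypocotyl arrays put that group level with petals, and the other array had no value. Germinating seeds averaged 2.47. Cauline leaves, rosette leaves and stem averaged -1.50, -1.67 and -0.92, below the array median.

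JMT encodes jasmonic acid carboxyl methyltransferase, which converts jasmonate to its volatile methyl ester. Its stamen values were 6.75, 9.31 and 7.62, a mean of 7.90 ± 1.30 (SD, n = 3). The next level, 5.60, came from 1 of the 2 sepal arrays, followed by light cotyledons at 2.57 and 5.48. Petal values of 4.85, 2.45 and -0.38 spread widely, and 1DPP pistils had 5.40 and 1.16 on the only arrays with a value. 1DBP pistils had 2.16 and 2.17. Its order among these groups is thus not resolved, while every stamen value exceeded every other array.

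AT5G47540 averaged above the array median in every organ group. Its stamen values were 5.68, 6.12 and 5.97. Cauline leaves averaged 3.60, dark cotyledons 3.02, light cotyledons 3.01 and 1DPP pistils 2.98, and rosette leaves were lowest, at 0.86. The cotyledon and 1DPP pistil arrays overlapped, and the stamen arrays lay above them all.

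AT1G23840 had stamen values of 5.84, 6.95 and 4.97. Its next levels were 2.32 on the only 1DPP pistil array with a value and 2.46, 2.84 and 0.83 in petals. AT2G19400 had 4.46, 4.48 and 3.02 in stamens, against 2.44, 2.16 and 1.12 in petals, the next highest group. Stamen and petal values did not overlap for either gene.

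The remaining named members rest on less. AT5G47620 had stamen values of 4.95 and 5.45, with none on replicate 3, and sepals followed at a mean of 2.71. AT3G54000 had stamen values of 2.19 and 5.11, which differ by more than its gap of 2.32, over a sepal mean of 1.33. AT3G49540 had 5.81, 5.23 and 2.05. Its next highest group was dark cotyledons, at 2.26 on 1 of 3 arrays, the only one with a value. The lowest stamen value lay below that array and below a dark hypocotyl array, at 2.17. It also lay below single arrays of light cotyledons, at 3.96, petals, at 3.05, and 1DPP pistils, at 3.06. For the last gene the stamen and other arrays therefore overlapped.

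The differences tested below were not used to choose the members, since the rule set only an upper limit on each group other than the stamen. Probes needed 2 or more values in each group to be tested, and were called at a Benjamini-Hochberg adjusted p under 0.05 over all probes, by a limma-type moderated test, with at least a 2-fold change. Several of these comparisons share arrays (1DBP pistils, 1DPP pistils, 3DPP siliques, petals and sepals each enter more than 1), so their values are given side by side.

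Stamen-specific probes were higher in 1DPP pistils than in 1DBP pistils. Of the 230 tested, 49 were called higher (21.3%) and 0 lower, where 0.774% of all 24433 probes tested were called higher and 0.303% lower. The 49 make up 25.9% of all probes called higher. At an unadjusted p under 0.05, 109 members were higher (47.4%) and 0 lower, where 4.56% of all probes were higher and 5.36% lower. The median change of the members was 1.54, with quartiles of 0.56 and 2.66, against -0.13 for all probes, and 200 members (87.0%) lay above 0, against 40.5% of all probes. Medians of the members by array were 2.27, 2.12, 1.85 and 2.11 in 1DPP pistils, against 0.19 and 0.48 in 1DBP pistils, with no overlap. The 32 members not tested had fewer than 2 values in a group.

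APPB1 had 5.31, 3.92 and 5.71 in 1DPP pistils, with none on replicate 3, against -1.0 and 0.58 in 1DBP pistils, and the groups did not overlap. Its change was 5.19 ± 0.96 (SE), with an adjusted p of 0.0028 from the limma-type test. AT3G07820 had 4.6, 4.83, 4.70 and 4.06 in 1DPP pistils, against 0.99 and 0.86 in 1DBP pistils, also without overlap. Its change was 3.63 ± 0.77 (SE), with an adjusted p of 0.0098 from the limma-type test. These were the only named members called. Without replicate 2 of the 1DBP pistils, the adjusted p of APPB1 was 0.121 and that of AT3G07820 0.110, and without replicate 3 that of AT3G07820 was 0.081.

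The 49 called members changed by 1.61 to 5.46. Their median level was 7.13 in stamens. Across the pistil and silique stages it was 0.09 at 1DBP, 3.63 at 1DPP, 2.08 at 3DPP and 0.93 at 8DPP, and it was 3.56 in petals and 2.52 in sepals. The 181 members tested but not called had medians of 5.92 in stamens, 0.55 in 1DBP pistils and 1.60 in 1DPP pistils. The 49 were picked by their 1DPP and 1DBP values on these arrays. Their medians in those groups, and the contrast there with the 181, follow in part from that choice. Part of their fall after 1DPP can come from it as well. The pollen markers did not pass this test in pistils: the difference was 2.36 ± 0.92 for VGD1 (adjusted p = 0.31 in the limma-type test), 0.81 ± 0.30 for TUA1, 0.19 ± 0.29 for TUB9 and -0.65 ± 0.74 for ACT11. None of these 4 was called, and their median difference was 0.50. ACT12, with too few values for the test, averaged 4.18 in 1DPP pistils, against -0.05 on the only 1DBP array with a value. The part of adhering pollen in the members' change was not tested. The number called depended on single arrays. Without replicate 2 of the 1DBP pistils, 16 members were called, beside 68 higher and 43 lower calls over all probes. Without replicate 3, 27 members were called, beside 172 higher and 155 lower calls over all probes, so the excess of higher calls over all probes was mostly lost there. A fit of the 6 compared arrays alone called 9 members, of 34 probes called in all. Without centring 62 were called, where the median of all probes moved to 0.18 and their calls to 319 higher and 32 lower.

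Later stages stood lower for part of the members. From 1DPP pistils to 3DPP siliques, 0 of 245 tested were called higher and 14 lower (5.71%), where 1.66% of all probes were called higher and 1.20% lower. Of the 14 called lower, 10 were among the 49 called higher in 1DPP than in 1DBP pistils. Both comparisons use the 1DPP arrays, and the same overlap over all probes is not given here, so the 10 are not read as a trait of the members. The median change of the members was -0.72, against 0.07 for all probes. Below 0 lay 196 members, and 20% of members lay above 0, against 55.2% of all probes. Medians by array were 1.23, 1.00 and 1.31 in 3DPP siliques, against 2.27, 2.12, 1.85 and 2.11 in 1DPP pistils, without overlap. No named member was called. Of the pollen list, 1 of 5 genes was called, ACT12, which averaged 0.75 in 3DPP siliques and changed by -3.42 ± 0.72 (SE, adjusted p = 0.0055 in the limma-type test). The other 4, not called, had differences of 0.68 (VGD1), 1.22 (ACT11), 0.64 (TUB9) and -0.17 (TUA1), and the median of the list was 0.64. The part of pollen in the members' change was not tested. The count of members was 8 without replicate 1 of the 3DPP siliques and 7 without replicate 2. Without centring 26 members were lower, where all probes moved to a median of -0.32 and 138 higher and 608 lower calls, against 423 and 306.

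In 8DPP siliques against 3DPP siliques, 4 of 191 members tested were called higher (2.09%) and 14 lower (7.33%), where 7.93% of all probes were called higher and 7.10% lower. The share lower was near that of all probes, and the share higher was below it. The median change was -0.59, against -0.05. AT3G07820 had 0.65 and 0.64 in 8DPP siliques, against 4.34, 2.47 and 5.91 in 3DPP siliques, without overlap. Its change was -3.60 ± 0.81 (SE), with an adjusted p of 0.0024 from the limma-type test. Of the pollen list 1 of 5 was called, ACT11, lower at -2.90 ± 0.78 (SE), and the list median was -0.12. Replicate 3 of the 8DPP siliques held values for only 60 of the 262 members. The count called in either direction was 4 without replicate 1 of the 8DPP siliques, 6 without replicate 2, 11 without replicate 1 of the 3DPP siliques and 12 without replicate 3. Without centring 13 members were higher and 7 lower, the reverse balance. All probes then had a median of 0.64 and 4431 higher and 406 lower calls, against 1690 and 1514.

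Petals and sepals both carried the members above the array median. Medians by array were 2.46, 2.58 and 1.88 in petals, against 2.15 and 2.12 in sepals, and overlapped. Of 216 tested, 6 were called higher in petals (2.78%) and 0 lower, where 5.12% of all probes were called higher and 2.31% lower. The members were thus not called more often than other probes, but the rule set an upper limit on their petal and sepal levels. Whether that limit lowered the count was not tested. The median difference was 0.46, against 0.22. The pollen marker TUA1 was higher in petals, by 1.25 ± 0.32 (adjusted p = 0.010 in the limma-type test), and the other 4 of its list were not called. The count of members was 2 without replicate 1 of the sepals and 0 without replicate 2. Centring on named probes gave 3 members, with 873 higher and 710 lower calls over all probes, against 1234 and 558.

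The unpollinated pistil stood far below petals and sepals. Of 196 members tested in 1DBP pistils against the mean of petals and sepals, 98 were called lower (50%) and 0 higher, where 11.5% of all probes were called lower and 22.5% higher. Of the 98, 44 were also among the 49 called higher in 1DPP than in 1DBP pistils. Both comparisons use the 1DBP arrays, and the same overlap over all probes is not given here. The 44 are therefore not read as a trait of the members. The median difference was -1.85, against 0.20 for all probes. Every 1DBP array lay below every petal and sepal array for 128 members (65.3%), where 18.2% of all probes did so. AT3G07820 had 0.99 and 0.86 in 1DBP pistils, against 5.46, 6.31 and 7.31 in petals and 4.79 and 4.63 in sepals. It differed by -4.62 ± 0.75 (SE), with an adjusted p of 1e-05 in the limma-type test, and APPB1 by -4.62 ± 0.91, with an adjusted p of 0.00018. AT1G23840 differed by -3.50 ± 0.93, with an adjusted p of 0.0035. This last call rests on a 1DBP value of -4.43 on replicate 3, the other being 0.36, and without that array the difference was -1.11 (adjusted p = 0.44).

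Of the pollen list, 4 genes were tested in this comparison and 2 were lower in 1DBP pistils, with changes of -3.16 ± 0.89 for VGD1 and -1.27 ± 0.29 for TUA1. VGD1 averaged 4.96 in petals and 3.82 in sepals. The ovule gene INO was higher in 1DBP pistils by 3.47. The other pollen genes did not move alike: ACT11 differed by 1.32 ± 0.74 and TUB9 by 0.84 ± 0.28, both above 0 and not called, TUA1 averaged 0.22 in petals and -1.03 in sepals, and the median difference of the list was -0.21. The part of adhering pollen was not tested. Leaving out replicate 2 of the 1DBP pistils left 54 members called. Without centring 120 were lower, where all probes had a median of -0.29 and 2985 higher and 4082 lower calls, against 5091 and 2603.

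The direct light arrays did not enter the choice of members. In cotyledons the members' medians were -0.36 and -0.43 on the 2 arrays, and in roots -0.25 and -0.77. In cotyledons 1 of 246 members was called higher in light (0.407%) and 10 lower (4.07%), where 6.55% of all probes were called higher and 4.82% lower. In roots 0 of 235 were called higher and 16 lower (6.81%), where 4.79% and 4.32% of all probes were called higher and lower. The median of the members was -0.44 in cotyledons, against -0.02 for all probes, and -0.63 in roots, against -0.04. The members called lower in cotyledons and in roots shared 1 probe, which is 10% of the first list and 6.25% of the second. The same overlap over all probes is not given here and the lists are short, so nothing is read from it. No named member was called in either.

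The direction of these ratios, light over dark, is a likely reading only. Its basis is the photosynthesis genes, of which 4 of 4 were higher on the cotyledon arrays with a median of 2.53. On the root arrays 1 of the 4 was called higher, with a median of 0.48, so the direction there has weaker support. Light RNA was in channel 1 on all 4 of these arrays, so dye and light cannot be told apart, and the 2 arrays correlated across probes at 0.619 in cotyledons and 0.472 in roots. The count of lower and higher calls together was 5 without replicate 2 in cotyledons and 3 without replicate 2 in roots. Without centring all probes split into 1144 higher and 1486 lower calls in cotyledons and 668 and 1274 in roots, against 1698 and 1249, and 1196 and 1080, when centred. Centred on named probes, the splits were 1190 and 1665 in cotyledons and 732 and 1482 in roots.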

How the data were processed

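Of the 51 arrays of 27648 probes, 45 held labelled RNA of an organ and of cultured cells, and 6 held organ RNA from light and dark. The deposited values are log2 ratios by the authors, down to a ratio of 0.001. Per the file headers they are 1 column per array, with array medians from -0.60 to 1.05. Imaging, background subtraction and normalization are not given in the sources used here. Signal over background was not used. Spots were averaged for 3 control accessions of 17 spots each, which left 27600 probes. Each array was centred on its median.

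The array's annotation table supplied gene names. It held no entry for 24972 probes, 1 symbol for 2032 and several for 644. The 182 single-gene probes on genomic clone accessions were left unnamed. All named members are given; in comparisons, named members called are given with values. The RefSeq annotation TAIR10.1 was used for names alone. Sequences were not analysed here.

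A model with a mean for each group was fitted to the 51 arrays, and variances were moderated as in limma 3.58.1 (R 4.3.3). Two-sided p-values were adjusted by Benjamini-Hochberg over all probes of a comparison, and errors of changes are standard errors. The procedure was tested on simulated data. The members, lists and comparisons were chosen with earlier results of these data known. Same-numbered arrays did not deviate together, so replicate numbers were not used as a block. Correlations ran from -0.065 to 0.030 over 15 entries, among which the petal and sepal pairs recur. Alternatives were other centring and scaling, complete probes, a replicate block, the compared arrays alone, and each array left out. The direct hypocotyl arrays were not tested, since their direction is not known.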

Additional observations from a re-analysis of the deposited data

How the results depend on the processing

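Scaling arrays to equal median absolute values gave 174 stamen-specific probes, of which 170 were among the 262, and requiring a mean in all 16 other groups gave 157. Leaving out each stamen array gave 243 to 292. With that scaling, members called numbered 30 in 1DPP against 1DBP pistils (all probes 175), 10 in 8DPP against 3DPP siliques, 1 in petals against sepals (all probes 526), 71 on the direct cotyledon arrays (all probes 9161) and 78 on the direct root arrays (all probes 8229). All probes numbered 436 in 3DPP siliques against 1DPP pistils. Without centring, 26 members were called in 3DPP siliques against 1DPP pistils, and 4837 of all probes in 8DPP against 3DPP siliques. Centred on named probes, 3 members were called in petals against sepals. Keeping only probes with no missing value gave 4 members and 935 of all probes in 8DPP against 3DPP siliques. Fitted on the compared arrays alone, 9 members and 34 of all probes were called in 1DPP against 1DBP pistils, 445 of all probes in 3DPP siliques against 1DPP pistils, 1 member and 314 of all probes in 8DPP against 3DPP siliques, and 0 of all probes in petals against sepals and on the direct cotyledon arrays. In those last fits by the limma-type test, 47 members and 54 members had an unadjusted p under 0.05, and 4653 and 7003 of all probes. The fits of compared arrays alone have fewer arrays to estimate the spread from; the other causes were not tested.

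Leaving out single arrays gave, for members and for all probes, 16 to 40 and 111 to 327 in 1DPP against 1DBP pistils, 7 to 12 and 441 to 733 in 3DPP siliques against 1DPP pistils, and 4 to 19 and 975 to 3134 in 8DPP against 3DPP siliques. It gave 0 to 7 and 638 to 2029 in petals against sepals, 54 to 91 and 4716 to 7951 in 1DBP pistils against petals and sepals, 5 to 10 and 1609 to 1765 on the direct cotyledon arrays, and 3 to 22 and 475 to 2769 on the direct root arrays. Where this left 1 array in a group, or 1 direct array, it was taken to vary like the other groups. With a replicate block, members called numbered 35, 11, 18, 7 and 91 in the first 5 of these comparisons, beside 188, 550, 3199, 1623 and 7561 of all probes. No block could be fitted for the direct arrays. Of 68 values of named members under the alternatives, 60 kept their call, 8 lost it and 0 changed direction. Besides those given above, the fit of compared arrays alone lost APPB1 in pistils (adjusted p = 0.125), AT3G07820 in siliques (0.126) and AT1G23840 in 1DBP pistils (0.089), and scaling lost AT3G07820 in pistils (0.110).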

Other observations

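On the direct hypocotyl arrays, given as deposited after centring and with no direction, the stamen-specific probes had medians of -0.39 and -0.44. The members with a gap of at least 5, named after their values were seen, have no gene here: probe 3249435 had stamen values of 9.83, 8.77 and 6.46 over a 1DPP pistil mean of 2.37, probe 3210217 had 7.45, 7.10 and 12.59 over a 3DPP silique mean of 3.61, and probe 3249437 had 7.99 and 11.06 over a sepal mean of 4.33. The 20 members whose next highest group was the germinating seed averaged there at a median of 3.08, with a median stamen mean of 5.45.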
